A study of Mus musculus with 18 samples.

Results

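The IL-1 family transcripts described here are 8 genes of cytokines, inhibitors and receptors: the agonists Il1a, Il1b and Il18, the antagonists Il1rn and Il18bp, and the receptor genes Il1r1, Il1r2 and Il1rap. They were chosen by name, and all 8 were found among the 24485 genes listed by symbol in every library. RNA-seq was performed on bone marrow-derived macrophages (BMDMs) from 3 Il10-/- mice on the C57BL/6J background, male and 12 weeks old by the methods of the study, so each library came from cells without functional IL-10, a cytokine that restrains macrophage activation. Marrow was grown for 6 days in medium with L929-conditioned supernatant. The 18 libraries formed 6 groups of 3. Cells received (+)-JQ1 (JQ1 below) at 500 nM, IL-10 at 10 ng/mL or neither for 12 hours, and then 50 ng/mL lipopolysaccharide (LPS) or PBS for 4 hours, to a total of 16 hours in every group. The groups are called unstimulated, JQ1, IL-10, LPS, LPS + JQ1 and LPS + IL-10. For cells given neither agent the labels read untreated, whereas the methods name a vehicle control before LPS. JQ1 is a small molecule that occupies the acetyl-lysine pocket of the bromodomains of BET proteins, and LPS is a bacterial cell wall component sensed by TLR4. The comparisons ask how BET inhibition alters the LPS response of these macrophages and how it compares with exogenous IL-10.

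IL-1α and IL-1β bind the receptor IL-1R1, which pairs with the accessory chain IL-1RAcP, the product of Il1rap, and signals through MyD88 and the IRAK kinases. The receptor antagonist encoded by Il1rn occupies IL-1R1 without recruiting the accessory chain, and IL-1R2 is a decoy that binds IL-1 without signalling. IL-18 acts through a related receptor and is held by the soluble IL-18 binding protein. The precursors of IL-1β and IL-18 are cut by caspase-1 within inflammasomes, so transcript levels describe only the first step of production. Macrophages are a main source of IL-1β and of the antagonist.

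The promoters of the genes that the results turn on, the agonists Il1a and Il1b and the antagonist Il1rn, are shown first, since the levels of these genes moved most between groups. Each is the 250 bases before a RefSeq transcription start, in the direction of transcription, matched exactly and once to build NCBIM37 (mm9), and the capitals mark motifs found by letters. Il1a and Il1b lie on the minus strand of chromosome 2, the windows being chr2:129135709-129135958 and chr2:129196876-129197125. The Il1rn window, the second of 3 RefSeq starts, is on the plus strand at chr2:24200561-24200810.
Il1a: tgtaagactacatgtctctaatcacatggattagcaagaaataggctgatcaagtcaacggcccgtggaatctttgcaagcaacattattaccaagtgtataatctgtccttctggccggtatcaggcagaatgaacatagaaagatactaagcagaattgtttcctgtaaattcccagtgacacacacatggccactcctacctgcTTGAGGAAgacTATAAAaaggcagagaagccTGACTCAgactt
Il1b: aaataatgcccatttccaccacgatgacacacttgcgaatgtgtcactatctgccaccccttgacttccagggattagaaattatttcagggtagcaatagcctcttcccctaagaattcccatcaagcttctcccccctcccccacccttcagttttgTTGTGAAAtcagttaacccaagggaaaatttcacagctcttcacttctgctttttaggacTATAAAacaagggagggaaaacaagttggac
Il1rn: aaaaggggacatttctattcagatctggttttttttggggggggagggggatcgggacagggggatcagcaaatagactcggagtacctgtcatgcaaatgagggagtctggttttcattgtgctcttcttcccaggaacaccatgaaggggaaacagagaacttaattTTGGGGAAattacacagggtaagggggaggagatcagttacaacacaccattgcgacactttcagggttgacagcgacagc
In the Il1a window the capitals are a C/EBP motif (TTNNGNAA, 43 bases before the start), which overlaps a PU.1 motif (GAGGAA), then a TATA motif (TATAAA, at 32 bases before the start) and an AP-1 motif (TGANTCA, at 12 bases). The Il1b window held a C/EBP motif at 91 bases and a TATA motif at 31 bases, and the Il1rn window held a C/EBP motif at 81 bases. Of the Il1rn windows not shown, the first held an AP-1 motif (TGAGTCA). The third held the same C/EBP site as the second and further C/EBP letters nearer its start. Both strands of 11 windows of the 8 genes were searched. The C/EBP letters were in 7 of the 11 windows, beside 36.8% of 32536 RefSeq windows of the same length. The other motifs were rarer: TATA in 3 of the 11 (12.3% of all windows), AP-1 in 2 (6.73%), PU.1 in 1 (23.4%), the kappaB motif in 1, an Il1r1 window (7.28%), the STAT motif TTCNNNGAA in 1 (7.04%) and the interferon-stimulated response motif (ISRE) in 0 (2.98%). These are matches of letters in short windows and not measured sites.

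In GENCODE vM1 (mm9) the genes were at chr2:129125346-129135708 (Il1a, minus strand), chr2:129190306-129196875 (Il1b, minus), chr2:24192373-24207014 (Il1rn, plus), chr9:50383378-50389942 (Il18, plus), chr7:109163593-109166669 (Il18bp, minus), chr1:40281925-40373043 (Il1r1, plus), chr1:40141613-40182064 (Il1r2, plus) and chr16:26581790-26730203 (Il1rap, plus). Exons of Il1a, Il1b and Il1rap share 222, 25 and 552 bases with a noncoding gene on the opposite strand, and reads of the 2 strands were not told apart in the counting.

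The libraries held 6781952 to 28289498 expected counts. Counts were normalised by the median of ratios, and TPM (transcript abundance scaled for length and library size) was used wherever genes were compared with each other. All 7 macrophage markers were found in all 18 libraries. Adgre1, Csf1r, Cd68, Lyz2 and Cd14 were at 448 TPM or more in each, while Itgam averaged 309 TPM in unstimulated cells and 86.3 with JQ1, and 196 with LPS and 50.2 when JQ1 came first, and Mertk was as low as 21.8 TPM. The knocked-out Il10 still gave 16 to 196 counts per library, and with no wild-type library and no reads by exon these counts do not check the genotype. Among markers of other cells, T cell genes summed to at most 0.32 TPM, mast cell and basophil genes to at most 0.52 TPM and dendritic cell genes to at most 2.61 TPM. The B cell list, mostly Cd79b, was at 2.34 to 5.13 TPM in unstimulated cells and 0.20 to 0.50 with JQ1, and after LPS at 0.89 to 1.53 and 0.10 to 0.68. Summed neutrophil markers were 24.3 to 87.3 TPM in unstimulated cells and 7.50 to 17.5 with JQ1, and after LPS they were 35.9 to 51.6 with no pretreatment, 13.3 to 30.1 with JQ1 and 31.5 to 70.0 with IL-10. Of the 8 neutrophil genes, Ly6g was at 0 in all libraries and Mpo and Elane at 1 count at most. Most of the sum was S100a8 and S100a9, which averaged 18.3 and 19.7 TPM with LPS and 6.63 and 9.66 with LPS + JQ1. Ngp was not lower there, at 3.23 TPM with LPS and 3.48 with LPS + JQ1. The stromal list reached 17.7 to 19.7 TPM with LPS and 2.29 to 7.23 with LPS + JQ1. Most of it with LPS was Pdgfrb, which averaged 13.3 TPM there, 0.50 with LPS + JQ1 and 0.40 in unstimulated cells. Col1a1 averaged 1.99 TPM with LPS and 1.94 with LPS + JQ1. The sums of the neutrophil and B cell lists, though not each of their genes, were lower with JQ1 both without and after LPS, as several IL-1 family genes were. Without LPS the stromal list overlapped, at 5.04 to 10.33 TPM in unstimulated cells and 5.92 to 10.85 with JQ1. The mast cell and basophil list summed there to 0.19 to 0.29 TPM with JQ1 against 0.04 to 0.15. All 5 of its genes had at most 3 counts in each of these libraries, too few to tell a difference. The part of these lists in the results was not tested. One unstimulated library, replicate 1, stood apart in Il1a and Il1b, and results that rest on it are also given without it. The scaling between libraries matters here. Between LPS and unstimulated cells the median log2 difference of 11390 genes, a part of those tested, was -0.03 as normalised and -0.96 under total-count scaling, and the share of called genes that were higher went from 49.0% to 20.1%. For LPS + JQ1 against LPS the medians were -0.09 and 0.29 and the shares 42.5% and 64.9%.

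LPS raised the agonists most. Il1b had normalised counts of 282, 62.6 and 77.8 (replicates 1, 2 and 3, the order used throughout) without LPS and 142152, 142897 and 157530.3 with LPS. Those of Il1a, the other agonist of IL-1R1, were 40.9, 5.07 and 15.4 in unstimulated cells and 48430.1, 44768 and 71189.8 with LPS. For both agonists the groups were far apart, while the unstimulated libraries themselves differed several-fold, replicate 1 being the highest. The log2 fold change was 10.02 ± 0.43 (SE, n = 3 in each group here and below; DESeq2 adjusted p = 6.4e-119) for Il1b and 11.34 ± 0.59 (DESeq2 adjusted p = 4.9e-81) for Il1a. Without the unstimulated replicate 1 the values were 11.00 and 12.26. With LPS, Il1b made up 0.692% ± 0.049 (SD) of all counts and held rank 10 to 13 among all genes by TPM, and Il1a 0.257% ± 0.070. As in every bulk sample, more expressing cells and more RNA per cell cannot be told apart.

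The antagonist and the IL-18 genes rose less. Il1rn had normalised counts of 209, 152 and 166 in unstimulated cells and of 7724, 8447 and 9909 with LPS, a log2 fold change of 5.61 ± 0.16 (DESeq2 adjusted p = 5.2e-285). Il18, a cytokine that drives interferon-γ production by lymphocytes, had 23.9, 22.0 and 36.9 in unstimulated cells and 683, 708 and 1146 with LPS. Its inhibitor Il18bp rose from 122, 157 and 120 to 1111, 992 and 988. For all 3 genes every LPS library lay above every unstimulated one. The log2 fold changes were 4.89 ± 0.28 for Il18 and 2.98 ± 0.15 for Il18bp, with DESeq2 adjusted p of 4.0e-65 and 4.2e-88.

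Of the receptor genes, Il1rap was the one with more than a few reads. Its normalised counts were 103, 122 and 141 in unstimulated cells and 594, 544 and 697 with LPS, a log2 fold change of 2.32 ± 0.14 (DESeq2 adjusted p = 7.5e-62). The signalling receptor Il1r1 had 1 to 4 counts in unstimulated cells and 4 to 11 with LPS, which did not pass (DESeq2 adjusted p = 0.064). In edgeR's quasi-likelihood test it did (adjusted p = 0.0415). The decoy Il1r2 had 0, 2 and 1 counts in unstimulated cells and 1, 0 and 0 with LPS, and over all 18 libraries never more than 2 counts, so no difference was detectable at this depth. In all, 6 of the 8 genes passed in the upward direction and 0 in the downward one, beside 31.6% of 14965 tested genes called higher and 32.9% called lower (64.5% in all). The median log2 fold change of the 8 was 3.94, beside -0.07 over all tested genes.

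**Figure D1:**
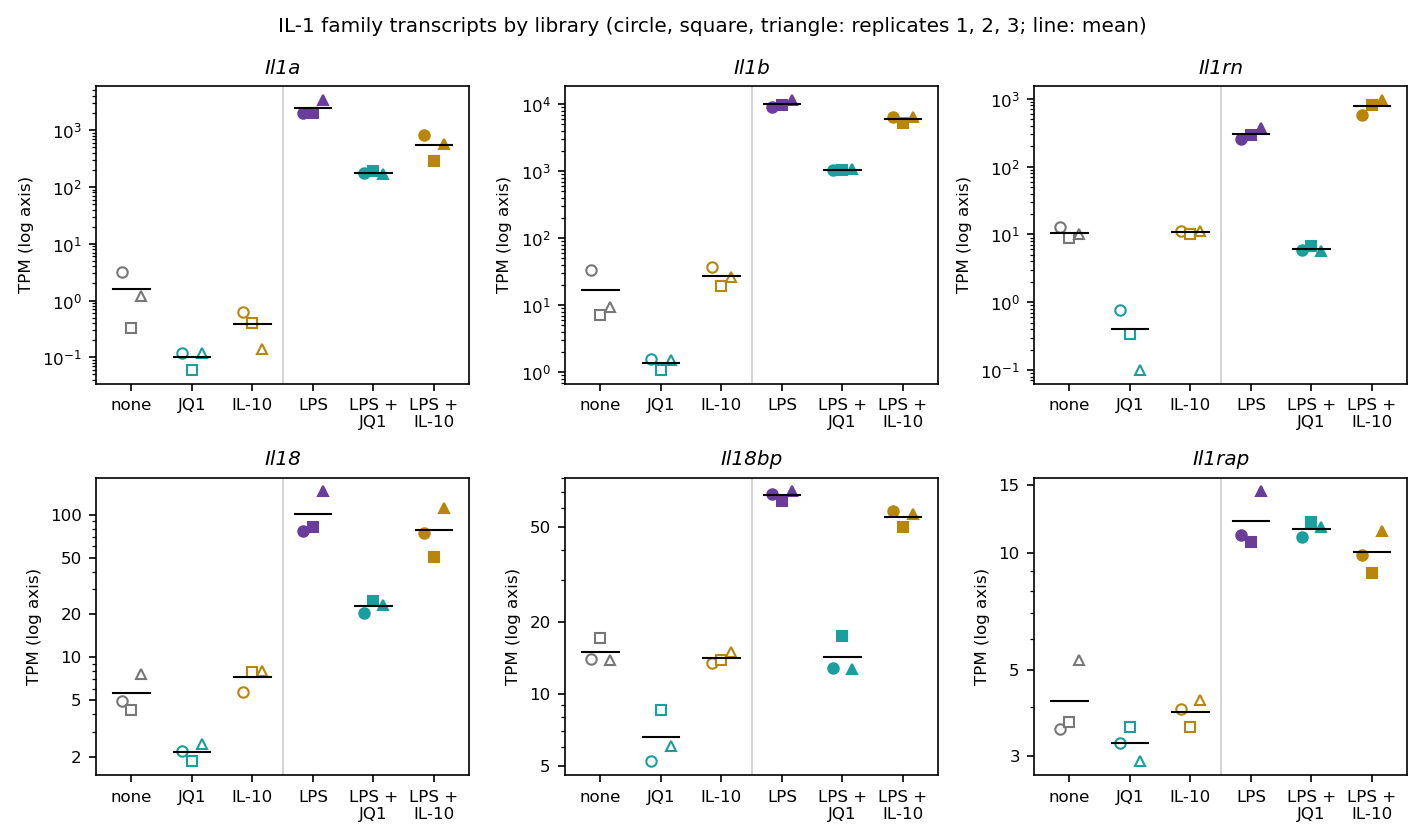
TPM on a log axis in each library (circle, square and triangle for replicates 1, 2 and 3; line, mean of 3) for 6 of the IL-1 family genes; Il1r1 and Il1r2 are left out because they had few or no reads. With LPS, Il1b averaged 10234 TPM, LPS + JQ1 brought Il1rn to 6.13 TPM, below the mean of 10.6 TPM in unstimulated cells, and LPS + IL-10 brought it to 795 TPM.

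JQ1 before LPS lowered the agonists, the antagonist and the IL-18 genes, and Il1rn fell most. The normalised counts of Il1rn were 7724, 8447 and 9909 with LPS and 145, 150 and 132 with LPS + JQ1, so the antagonist was left at 1.66% ± 0.29 (SD over 3 pairs of equal replicate number) of its LPS level. Il1b fell from 142152, 142897 and 157530.3 to 12917, 11785 and 12665.5, or 8.46% ± 0.55 of its LPS level. Il1a fell to 3380.5, 3247 and 3018, or 6.16% ± 1.67. In each of these genes every LPS + JQ1 library lay below every LPS library. The log2 fold changes were -5.93 ± 0.16 for Il1rn, -3.57 ± 0.42 for Il1b and -4.09 ± 0.56 for Il1a, with DESeq2 adjusted p of 4.4e-297, 2.7e-16 and 1.7e-12. The LPS and LPS + JQ1 libraries of each pair were sequenced in the same lane. This did not hold between cells with and without LPS. Replicate 2 was in lane 7 in every group without LPS and in lane 8 in every group with LPS. Lane thus went in part with LPS.

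Both IL-18 genes fell. Il18 had 145, 163 and 162 normalised counts with LPS + JQ1, against 683, 708 and 1146 with LPS, and Il18bp had 163, 205 and 156, against 1111, 992 and 988. They were left at 19.5% ± 4.7 and 17.1% ± 3.2 of their LPS levels. The log2 fold changes were -2.43 ± 0.25 (DESeq2 adjusted p = 2.3e-21) and -2.55 ± 0.15 (DESeq2 adjusted p = 1.8e-66).

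Il1rap was the exception in size. It had 476, 455 and 459 normalised counts with LPS + JQ1 and 594, 544 and 697 with LPS, groups that did not overlap but lay close together. The log2 fold change of -0.40 ± 0.12 passed (DESeq2 adjusted p = 0.0029), but under total-count scaling it was -0.02 (adjusted p = 0.899) and in limma on log2(TPM + 1) -0.05 (adjusted p = 0.862), and without replicate 3 it was -0.28 (adjusted p = 0.101). The median of 11390 genes itself was -0.09 in the first case and 0.29 and 0.16 under total-count scaling and in limma, and relative to that median Il1rap stood at -0.31, -0.31 and -0.21. Il1r1 had 1 to 9 counts with LPS + JQ1 and Il1r2 had 0 in each library, which allows up to 3 counts per library. Thus 6 of 7 tested genes were called lower, beside 32.9% of 14326 tested genes, and 0 higher, beside 24.4% (57.3% in either direction). The median log2 fold change of the 7 was -2.55, beside -0.11 over all tested genes. Summed neutrophil and stromal markers were also lower with LPS + JQ1, as given above.

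After JQ1 the genes differed in how far they stayed above the unstimulated level. In LPS + JQ1 cells Il1b was still higher than in unstimulated cells by a log2 fold change of 6.46 ± 0.43, Il1a by 7.25 ± 0.59, Il18 by 2.46 ± 0.29 and Il1rap by 1.92 ± 0.14 (DESeq2 adjusted p at most 1.5e-16). Il1rn had 145, 150 and 132 normalised counts, against 209, 152 and 166 in unstimulated cells. Each LPS + JQ1 library was thus below each unstimulated one, with a log2 fold change of -0.32 ± 0.17 that did not pass (DESeq2 adjusted p = 0.094). Under total-count scaling and in limma on log2(TPM + 1) it was -0.87 and -0.69, and passed. Il18bp had 163, 205 and 156 counts, against 122, 157 and 120, a difference of 0.43 ± 0.16 (DESeq2 adjusted p = 0.013) whose sign turned to -0.12 under total-count scaling and to -0.07 in limma on log2(TPM + 1). That call was also lost without replicate 1 (adjusted p = 0.067), without replicate 3 (adjusted p = 0.075) and without the unstimulated replicate 1 (adjusted p = 0.065). Here 5 of the 8 genes were called higher, beside 30.1% of 14645 tested genes, and 0 lower, beside 32.3% (62.4% in either direction). These unstimulated and LPS + JQ1 libraries also serve in other comparisons, which are therefore not independent.

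IL-10 before LPS raised the antagonist and lowered Il1a. Il1rn rose from 7724, 8447 and 9909 normalised counts with LPS to 16639, 21704 and 24234 with LPS + IL-10, or 239% ± 21.3 of its LPS level. Il1a fell from 48430.1, 44768 and 71189.8 to 18430.4, 5773 and 10873, or 22.1% ± 13.9. Replicate 1 kept the most Il1a and replicate 2 the least, yet all 3 LPS + IL-10 libraries were below all LPS libraries. The log2 fold changes were 1.26 ± 0.14 (DESeq2 adjusted p = 6.8e-17) for Il1rn and -2.23 ± 0.56 (DESeq2 adjusted p = 0.00090) for Il1a, and the call of Il1a was lost without replicate 3 (-1.94, adjusted p = 0.137).

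Il1b was 142152, 142897 and 157530.3 with LPS and 91893, 70797 and 79885 with LPS + IL-10. The groups did not overlap and the shares of the LPS level were 64.6%, 49.5% and 50.7%, but the log2 fold change of -0.87 ± 0.42 (95% interval -1.70 to -0.04) did not pass (DESeq2 adjusted p = 0.16). The DESeq2 fit takes 1 dispersion per gene from all 18 libraries, among them the unstimulated ones in which Il1b varied most. In edgeR's quasi-likelihood test the difference passed (adjusted p = 0.0195), as it did in DESeq2 on these 2 groups alone (adjusted p = 6.2e-10) and without replicate 1 (adjusted p = 1.1e-14). It did not pass without replicate 2 or 3 (adjusted p = 0.395 and 0.469), with the replicate block (adjusted p = 0.066), in limma on log2(TPM + 1) (adjusted p = 0.270), with lane as a term (adjusted p = 0.162) or under the other scalings, and the log2 fold change was negative in each of these fits.

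Il18 had 621, 401 and 814 normalised counts with LPS + IL-10, which overlapped those with LPS, and the log2 fold change of -0.46 ± 0.24 (95% interval -0.94 to 0.01) did not pass (DESeq2 adjusted p = 0.21). Il18bp had 874, 704 and 744 and Il1rap 479, 420 and 516, each below every LPS library. Their log2 fold changes of -0.41 ± 0.14 and -0.37 ± 0.13 passed (DESeq2 adjusted p = 0.016 and 0.022), but both calls were lost under total-count scaling (adjusted p = 0.059 and 0.14), in limma on log2(TPM + 1) and without any 1 of the 3 replicates, and that of Il1rap also on these 2 groups alone (adjusted p = 0.152). Il1r1 and Il1r2 had at most 6 and 1 counts. In sum, 1 of 6 tested genes was called higher and 3 lower, beside 8.38% and 8.81% of 11448 tested genes (17.2% together). Their median log2 fold change was -0.44, beside -0.02 over all tested genes. The LPS libraries are shared with the comparison of LPS + JQ1 and LPS.

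**Figure D2:**
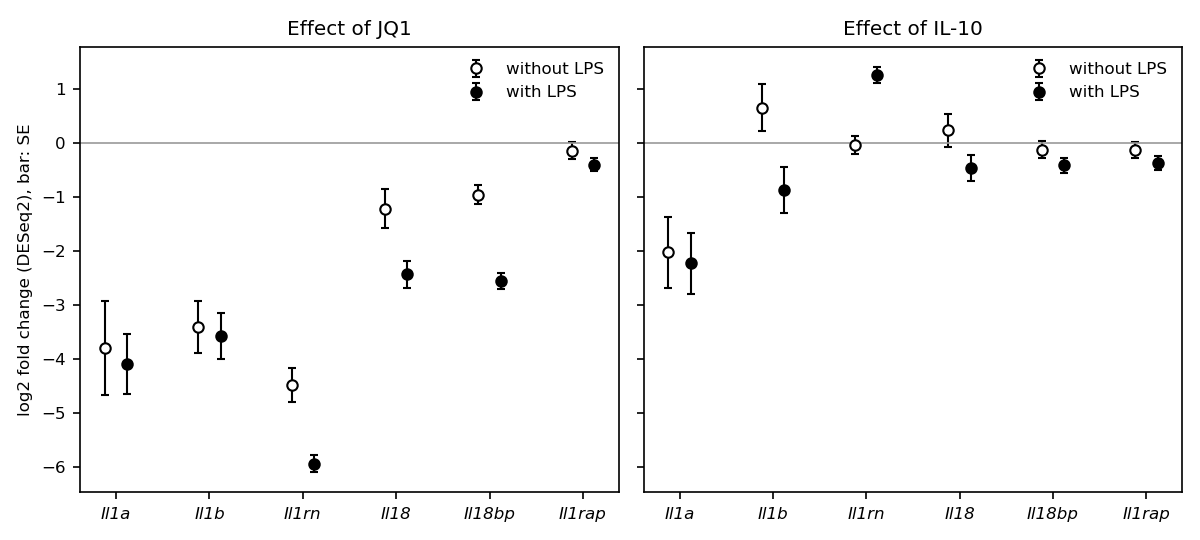
Log2 fold changes (DESeq2; bars, SE) of JQ1 (left) and IL-10 (right) for 6 genes, in cells without LPS (open circles) and with LPS (filled circles). With LPS, Il1rn was at -5.93 for JQ1 and at 1.26 for IL-10, and without LPS at -4.48 and -0.03.

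Set directly against each other, LPS + JQ1 was below LPS + IL-10 for 5 of 7 tested genes, beside 31.6% of 14326 tested genes called lower, and above it for 0, beside 23.8% (55.3% in either direction). The difference was largest for Il1rn among the 8 genes. It had 145, 150 and 132 normalised counts against 16639, 21704 and 24234, a log2 fold change of -7.20 ± 0.16. Il1b was lower by a log2 fold change of -2.70 ± 0.42, Il1a by -1.86 ± 0.56, Il18 by -1.97 ± 0.25 and Il18bp by -2.14 ± 0.15, with DESeq2 adjusted p of 8.9e-10, 0.0022, 2.9e-14 and 2.1e-46. For Il1a the call was lost without replicate 3 (adjusted p = 0.055). Il1rap had 476, 455 and 459 after JQ1 and 479, 420 and 516 after IL-10, overlapping groups with a log2 fold change of -0.03 (95% interval -0.28 to 0.22), and its sign turned to 0.07 with TMM factors and 0.25 under total-count scaling.

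The antagonist was next set against the agonist within each library, since a ratio of 2 genes of 1 library does not depend on the scaling between libraries. In unstimulated cells Il1rn and Il1b were at similar levels per length, with log2 ratios of Il1rn to Il1b in TPM of -1.41, 0.31 and 0.12. With LPS the ratios were -5.19, -5.06 and -4.97, so there was 31.4 to 36.5 times more Il1b than Il1rn. With LPS + JQ1 they were -7.47, -7.28 and -7.56, or 155 to 189 times more Il1b. With LPS + IL-10 they were -3.45, -2.68 and -2.71, or 6.40 to 10.9 times more. The ratio was thus lower with JQ1, by -2.36, and higher with IL-10, by 2.13, each in 3 of 3 pairs and with no overlap of groups. With 3 against 3 libraries an exact two-sided permutation test cannot go below p = 0.1, the value obtained for these differences and for that between LPS and unstimulated cells (-4.74). Adjusted over the 8 ratio comparisons it was 0.133 (exact permutation test, Benjamini-Hochberg).

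Il1a and Il1b also moved unequally. With LPS the log2 ratio of Il1a to Il1b was -2.18, -2.29 and -1.77. With JQ1 before LPS it was -2.56, -2.48 and -2.69, and with IL-10 before LPS -2.94, -4.23 and -3.50. Il1a was therefore the more reduced of the agonists with IL-10 (difference -1.48) and to a smaller extent with JQ1 (-0.49), both in 3 of 3 pairs (exact permutation p = 0.1, adjusted 0.133). The log2 ratio of Il18bp to Il18 was between 0.87 and 1.99 in unstimulated cells and -0.15, -0.35 and -1.06 with LPS (difference -1.97; exact permutation p = 0.1, adjusted 0.133). With JQ1 before LPS it was -0.67, -0.51 and -0.89, and with IL-10 -0.35, -0.02 and -0.98, ranges that overlapped those with LPS (differences -0.17 and 0.07; exact permutation p = 0.7 and 0.8, adjusted 0.8 for both). A ratio of Il1r2 to Il1r1 could be formed in no library, since Il1r2 had 2 counts or fewer.

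**Figure D3:**
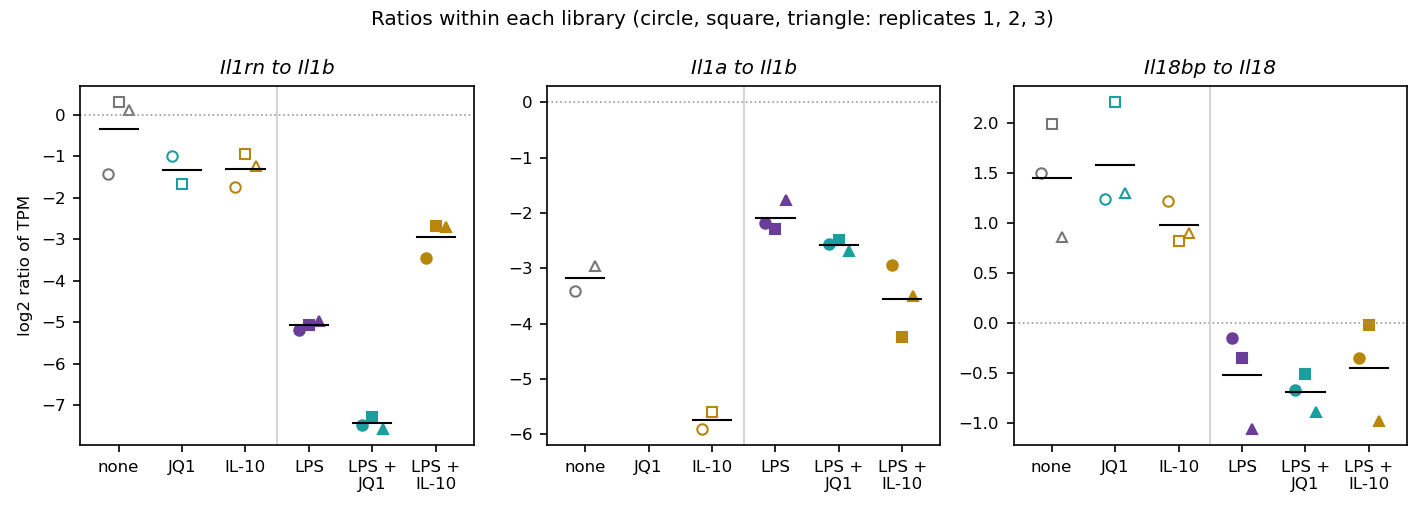
Log2 ratios of TPM within each library for Il1rn to Il1b, Il1a to Il1b and Il18bp to Il18 (symbols, replicates 1, 2 and 3; line, mean; no point where either gene had 3 or fewer counts). The Il1rn to Il1b ratio averaged -5.07 with LPS, -7.44 where JQ1 preceded it and -2.94 where IL-10 did.

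In cells without LPS, JQ1 lowered both agonists of IL-1R1, the antagonist and the IL-18 genes. Il1rn had 14.7, 6.90 and 1.83 normalised counts with JQ1, against 209, 152 and 166, and Il1b had 14.7, 10.8 and 14.7, against 282, 62.6 and 77.8. Both were lower in every JQ1 library than in any unstimulated one. The log2 fold changes were -4.48 ± 0.32 (DESeq2 adjusted p = 6.8e-42) and -3.40 ± 0.48 (DESeq2 adjusted p = 2.0e-11), and without the unstimulated replicate 1 they were -4.33 and -2.41. Il1a had 1 or 2 counts in each JQ1 library, and its log2 fold change of -3.79 (95% interval -5.51 to -2.08; DESeq2 adjusted p = 6.5e-05) became -2.87 without that replicate. Il18 fell from 23.9, 22.0 and 36.9 to 12.1, 10.8 and 13.7, and Il18bp from 122, 157 and 120 to 51.9, 90.7 and 60.4, by log2 fold changes of -1.22 ± 0.36 and -0.96 ± 0.18 (DESeq2 adjusted p = 0.0026 and 3.4e-07). Il1rap had 112, 126 and 95.2 against 103, 122 and 141 (-0.14, 95% interval -0.44 to 0.16; DESeq2 adjusted p = 0.49). Thus 5 of 7 tested genes were called lower, beside 23.7% of 13686 tested genes, and 0 higher, beside 21.9% (45.7% in either direction). Summed neutrophil markers were lower with JQ1 here too.

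With IL-10 alone 0 of 7 tested genes passed in DESeq2, beside 2.81% of 12727 tested genes called, 1.8% higher and 1.01% lower. At an unadjusted p under 0.05 it was 1, Il1a, and in edgeR and limma 0. Il1rn had 180, 167 and 174 normalised counts with IL-10, against 209, 152 and 166 without, a log2 fold change of -0.03 (95% interval -0.35 to 0.29) whose sign turned in limma on log2(TPM + 1), where it was 0.04. Il1a had 7.85, 5.38 and 1.66 against 40.9, 5.07 and 15.4 (-2.02, DESeq2 adjusted p = 0.069), and with the replicate number as a block it passed (-1.92, adjusted p = 0.0346), as it did with lane as a term (adjusted p = 0.0365) and without replicate 2 (adjusted p = 0.0451). Il1b had 301, 163 and 206 against 282, 62.6 and 77.8 (0.66, DESeq2 adjusted p = 0.80). It was higher in 3 of 3 pairs, at 107%, 260% and 265%, and without the unstimulated replicate 1 the difference was 1.65 and passed (adjusted p = 7.4e-12). The intervals for Il18, Il18bp and Il1rap were -0.36 to 0.84, -0.44 to 0.18 and -0.43 to 0.15.

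Whether the effect of an agent depended on LPS was tested by the interaction. For JQ1, 3 of 7 tested genes passed, all in the direction of a larger fall with LPS, beside 23.8% of 12727 tested genes called in that direction, 17.7% in the other and 41.5% in either. Il18bp fell by -0.96 without and by -2.55 with LPS (interaction -1.60 ± 0.23, DESeq2 adjusted p = 3.9e-11). Il1rn fell by -4.48 and -5.93 (-1.45 ± 0.36, adjusted p = 0.00025), a call that was lost without replicate 1 (-0.80, adjusted p = 0.264), and Il18 by -1.22 and -2.43 (-1.22 ± 0.44, adjusted p = 0.017), a call lost under total-count scaling (-0.66, adjusted p = 0.213), in edgeR (-1.06, adjusted p = 0.121), in limma on log2(TPM + 1) (-1.01, adjusted p = 0.0511) and without replicate 1 (-1.19, adjusted p = 0.0895) or the unstimulated replicate 1 (-1.09, adjusted p = 0.0525). For Il1a and Il1b the interactions were -0.30 (95% interval -2.34 to 1.74) and -0.17 (-1.42 to 1.09), with DESeq2 adjusted p of 0.85 and 0.87. Both turned positive under total-count scaling, at 0.26 and 0.38. For Il1a the interaction was -2.68 and passed in limma on log2(TPM + 1) (adjusted p = 0.0011). There the effect of JQ1 without LPS was -1.07, against -3.79 in DESeq2. Il1a was at 0.33 to 3.19 TPM in unstimulated cells and 0.06 to 0.12 with JQ1, levels near or below the added 1. For Il1b the interaction was -1.15 (adjusted p = 0.0030) without the unstimulated replicate 1 and -1.13 (adjusted p = 0.0060) without replicate 1 of every group. The direction of the background depended on the scaling: of the genes called in this interaction, 42.6% were higher as normalised, 85.4% under total-count scaling and 81.6% in limma, and the median of 11390 genes went from -0.05 to 0.50 and 0.38.

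For IL-10, Il1rn was called, with -0.03 without and 1.26 with LPS (interaction 1.29 ± 0.22, DESeq2 adjusted p = 2.4e-07). It was the 1 gene of 6 tested that was called higher, beside 4.0% of 10808 tested genes, 3.44% being lower and 7.44% called in all. For Il1b the interaction of -1.53 ± 0.61 did not pass (DESeq2 adjusted p = 0.12), but it did with the replicate block (-1.67, adjusted p = 0.0196), in edgeR (-1.47, adjusted p = 0.0207) and without replicate 1 of every group (-2.34) or of the unstimulated group alone (-2.52), and did not in limma on log2(TPM + 1) (-1.71, adjusted p = 0.116) or the other alternatives.

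LPS raised the genes from every pretreatment. From JQ1 cells the log2 fold changes were 9.86 ± 0.48 for Il1b, 11.04 ± 0.86 for Il1a (from 1 or 2 counts per library), 4.16 ± 0.33 for Il1rn, 3.68 ± 0.34 for Il18, 1.38 ± 0.17 for Il18bp and 2.06 ± 0.14 for Il1rap. From IL-10 cells they were 8.50 ± 0.43, 11.13 ± 0.63, 6.91 ± 0.15, 4.19 ± 0.27, 2.70 ± 0.14 and 2.09 ± 0.14. These 6 of the 7 tested genes passed in DESeq2 in each case, beside 27.6% of 13686 tested genes called higher and 31% lower (58.6% in all) from JQ1 cells, and 33.2% of 14326 higher and 33.8% lower (67.0% in all) from IL-10 cells.

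The order of the genes by TPM changed with the condition. In unstimulated cells Il1b (16.8 TPM), Il18bp (15.02) and Il1rn (10.6) had the highest means, and the range of Il1b overlapped those of both others. The first place of Il1b rested on replicate 1, at 33.9 TPM. In replicates 2 and 3 Il1b was at 7.12 and 9.44 TPM. There it lay below Il18bp (17.1 and 13.9) and Il1rn (8.80 and 10.3). With JQ1 alone Il18bp (6.62) and Il1rap (3.23) led and Il1rn was at 0.41. With LPS the order was Il1b (10234), Il1a (2489), Il1rn (307), Il18 (102), Il18bp (67.9) and Il1rap (12.1), each apart from the next. With LPS + JQ1 it was Il1b (1059), Il1a (178), Il18 (22.8), Il18bp (14.3), Il1rap (11.6) and Il1rn (6.13), each apart from the next, so the antagonist stood last of the 6. Il1r1 and Il1r2 were the lowest in each group. The mean transcript length of Il1rap, weighted by the abundance of its 4 annotated transcripts, was 4248 ± 101 bases (SD) with LPS, 4146 ± 117 where JQ1 preceded it and 4239 ± 140 where IL-10 did, ranges that overlapped.

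The other genes of the pathway were described by lists. Of 14 genes of IL-1 receptor signalling, 9 were higher and 5 lower with LPS, beside 31.6% and 32.9% of all tested genes, led by Peli1, a ubiquitin ligase of the IRAK complexes (log2 fold change 5.23), and the kinase gene Irak2 (3.53). With LPS + JQ1, 6 were lower and 3 higher than with LPS, beside 32.9% and 24.4% of all tested genes, so 9 of 14 were called where 57.3% of all genes were. The adaptor gene Myd88 was among the lower (-1.51 ± 0.07, DESeq2 adjusted p = 1.4e-100), as was Peli1 (-1.29, DESeq2 adjusted p = 1.6e-73), and the higher were Irak4, Tab1 and Peli3, named after their values were seen. With LPS + IL-10, 2 were higher, Irak3 and Irak4, and 3 lower, Peli1 (-0.44, DESeq2 adjusted p = 1.0e-08), Tab2 and Irak2, beside 8.38% and 8.81% of all tested genes. Irak3, which encodes an inhibitor of IRAK signalling, rose by 1.05 ± 0.12 (DESeq2 adjusted p = 3.3e-17), whereas with LPS + JQ1 it was at -0.78 ± 0.12 (DESeq2 adjusted p = 2.5e-10). The median log2 fold changes of the list were 0.45, -0.09 and -0.01 in these comparisons, beside -0.07, -0.11 and -0.02 over all tested genes.

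Of 12 genes of cytokine processing and release, 10 were higher and 2 lower with LPS, beside 31.6% and 32.9% of all tested genes. Among the higher were Nlrp3, the inflammasome sensor (5.64), and Casp4, which encodes a caspase that senses intracellular LPS (4.51). With LPS + JQ1, 10 were lower and 1, Ninj1 (0.27, DESeq2 adjusted p = 0.04999), higher than with LPS, beside 32.9% and 24.4%. Nlrp3 went from a mean of 36641 normalised counts to 3910.2 (-3.23 ± 0.09, DESeq2 adjusted p = 1.6e-263), and the pore gene Gsdmd from 3135 to 669.9 (-2.23 ± 0.11, DESeq2 adjusted p = 4.2e-96). With LPS + IL-10, 2 were higher, Nlrc4 (1.201 ± 0.19) and the adaptor gene Pycard (0.56 ± 0.08), and 2 lower, Nlrp3 (-0.40 ± 0.09) and Ninj1 (-0.46 ± 0.13), the last pair named after their values were seen, with DESeq2 adjusted p at most 0.0023, beside 8.38% of all tested genes higher and 8.81% lower. The medians were 1.501, -1.11 and -0.07, beside -0.07, -0.11 and -0.02 over all tested genes. Of 6 further ligands of the family, 4 had a mean count under 1. Of 7 further receptors, 4 were tested for LPS + JQ1 against LPS. Of these, 3 were lower, beside 32.9% of all tested genes, and 0 higher, beside 24.4%. The 3 are named after their values were seen, and their counts were low. Il18rap, a chain of the IL-18 receptor, had mean normalised counts of 27.8 with LPS, 1.58 where JQ1 preceded it and 28.5 where IL-10 did, and Il1rl1 and Il1rl2 had 6.85 and 10.2 with LPS and 0.35 and 2.16 with LPS + JQ1.

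**Figure D4:**
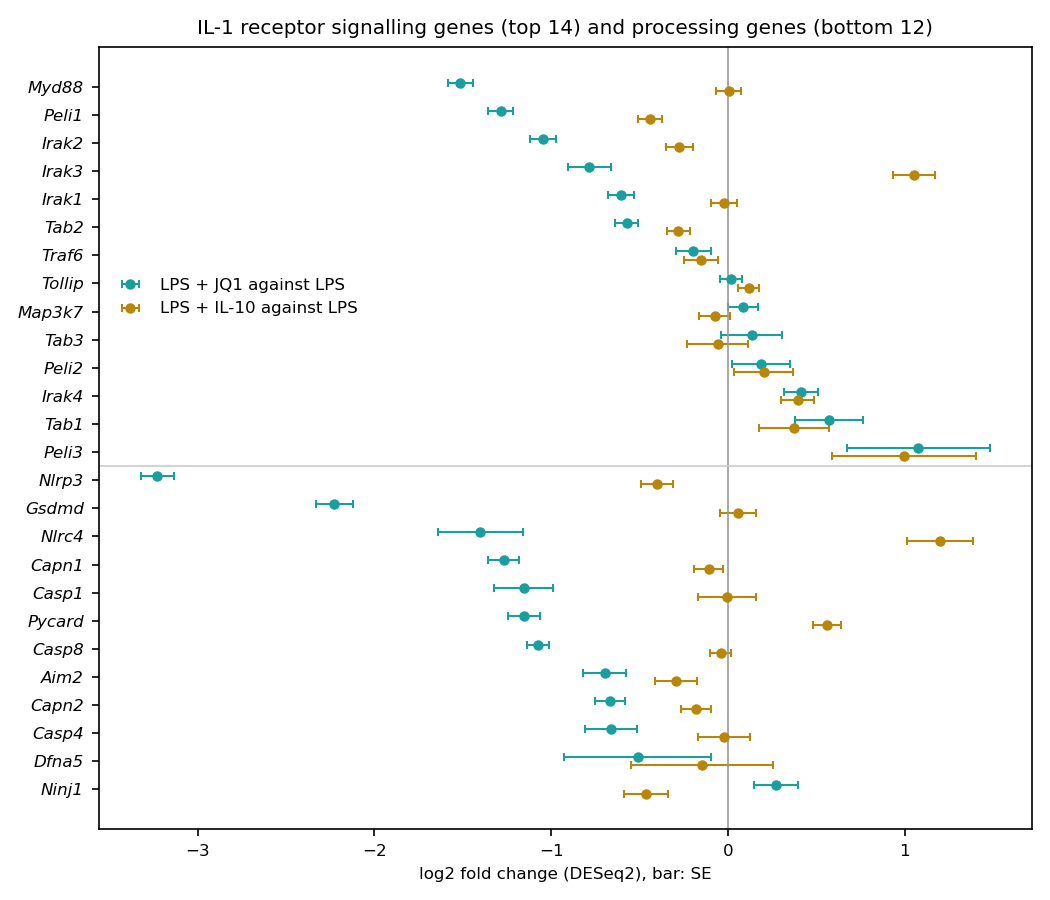
Log2 fold changes (DESeq2; bars, SE) of 14 IL-1 receptor signalling genes and 12 processing genes for LPS + JQ1 (teal) and LPS + IL-10 (gold) against LPS, ordered by the JQ1 value within each list. Nlrp3 was at -3.23 with JQ1 and -0.40 with IL-10, and Irak3 at -0.78 and 1.05.

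The genes with the most similar pattern were found among 9488 genes by the root mean square difference over the 18 libraries of centred, variance-stabilised log2 values. For Il1a the nearest were Il12b (0.60), Il6 (0.63) and Ptgs2, and for Il1b they were Oasl1, Ifi205 and Ifit1. Il1rn was nearest to Gpr84 (0.84), Tarm1 (0.90) and Ptges (0.93), Il18 to Ccl9, Lcp2 and Adgrg6, Il18bp to Ccnj, A630001G21Rik and Tmcc3, and Il1rap to Tra2b, Abi1 and Ppp2r2a. Gpr84 had a mean of 7994 normalised counts with LPS, of 340 where JQ1 preceded it and of 8389 where IL-10 did. Ptges, which encodes a prostaglandin E synthase, had a mean of 1188 normalised counts with LPS, of 36.3 where JQ1 preceded it and of 4988 where IL-10 did.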

How the data were processed

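RNA-seq (stranded, ribosomal RNA depleted, paired end) was performed on 18 libraries. The authors trimmed reads with TagDust, aligned them to mm9 with STAR and quantified them with RSEM 1.2.31. The deposited files hold expected counts and TPM per gene, and the authors' FPKM values, also from RSEM, were not used. Expected counts were rounded and fitted with DESeq2 1.42.0 (R 4.3.3) over all libraries, by group alone, with size factors from the median of ratios, Wald tests and Benjamini-Hochberg adjusted p under 0.05. edgeR 4.0.16 and limma 3.58.1 on log2(TPM + 1) were alternatives. All were tested on simulated data. In those data a small share of 16894 genes changed 2-fold or 4-fold between LPS + JQ1 and LPS. These were drawn from genes with a mean of at least 50 normalised counts. DESeq2 recovered 95% of the 2-fold changes, and 11.0% of its calls were false. In the measured libraries 57.3% of tested genes were called in this comparison, so these shares may not carry over.

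The series' design text describes biologically matched samples from 3 mice, but no label names the mouse behind a replicate number, so pairs are libraries of equal number. Deviations from the group means correlated within number at 0.10, 0.20 and 0.21 (LPS against unstimulated), 0.21, -0.17 and -0.25 (LPS + JQ1 against LPS) and 0.33, 0.49 and 0.71 (LPS + IL-10 against LPS), so not every comparison showed pairing. A fit with the number as a block was an alternative. P-values measure the spread between these libraries.

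The 8 genes and the gene lists were chosen with earlier results of these data known. All 8 are described in every comparison. From each list the 2 genes with the largest change past the threshold and a mean of at least 50 normalised counts are named per LPS comparison, and for genes with that mean the 3 with the most similar pattern. A gene at 0 in a library may have had up to 3 counts, or 0.106 to 0.442 CPM, by counting error alone. Promoters come from RefSeq and are matched to mm9.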

Additional observations from a re-analysis of the deposited data

Results flagged for a closer look

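For 4 results the effect of an agent differed between cells with and without LPS by the interaction test of DESeq2. With JQ1 the log2 difference of effects was -1.45 for Il1rn, -1.22 for Il18 and -1.60 for Il18bp, each a larger fall with LPS than without. With IL-10 it was 1.29 for Il1rn, which was at -0.03 without LPS and at 1.26 with it. For JQ1 these were 3 of 7 tested genes, beside 41.5% of 12727 tested genes called in either direction and 23.8% in this one. For IL-10 it was 1 of 6, beside 7.44% of 10808 called in either direction. The Il18 call was lost under total-count scaling, in edgeR, in limma and without replicate 1. The Il1rn call with JQ1 was also lost without replicate 1. In JQ1 cells without LPS, Il1rn had 1.83 to 14.7 normalised counts per library, which limits the precision of its first value.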

How the results depend on the processing

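Every comparison was also run with TMM or total-count scaling, in edgeR, in limma on log2(TPM + 1), with a count filter (at least 10 counts in 3 libraries), on the compared groups alone, with a replicate block, with lane as a term and without each replicate, and, chosen after seeing the data, without the unstimulated replicate 1. Of such values for 6 of the genes in 11 comparisons and for Il1r1 in LPS against unstimulated cells, 708 kept their direction and side of the threshold, 18 newly passed, 25 no longer passed and 22 changed sign. The cause was not tested. The replicate block let Il1a with IL-10 alone and the Il1b interaction with IL-10 pass, 1 gene lower in each, and changed no other call among these values. Il1r1 otherwise and Il1r2 had too few counts.

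Genes called in all numbered 205 for IL-10 against unstimulated in limma, and 1089 for LPS + IL-10 against LPS on these groups alone, beside 358 and 1968. Leaving out 1 replicate or the unstimulated replicate 1 gave 130 to 374 and 874 to 1250 in these comparisons, 4050 to 5503 for JQ1 against unstimulated (6248), 3471 to 4995 for the JQ1 interaction (5279) and 291 to 748 for the IL-10 interaction (804). Of the 8 genes, 1 was lower with IL-10 alone with lane as a term, and 0 to 1 were higher or lower when a replicate was left out. In LPS + IL-10 against LPS 1 was lower under total-count scaling and in limma, and 0 to 2 when a replicate was left out. In LPS + JQ1 against unstimulated cells 1, Il1rn, was lower under total-count scaling and in limma. In the IL-10 interaction 1, Il1b, was lower in edgeR, and 0 to 1 when a replicate was left out.

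The share of called genes that were higher went, from the median of ratios to total-count scaling, from 48.0% to 26.8% for JQ1 and from 48.2% to 22.3% for LPS + JQ1 against unstimulated, from 48.7% to 71.1% for LPS + IL-10 against LPS, from 42.9% to 61.2% for LPS + JQ1 against LPS + IL-10, from 47.1% to 25.6% and 49.6% to 21.0% for LPS after JQ1 and after IL-10, and from 53.7% to 73.6% for the IL-10 interaction. For IL-10 against unstimulated it went from 64.0% to 78.0% in limma.

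Log2 values that changed sign were small or imprecise. Il1rap ranged from -0.27 to 0.11 with JQ1 alone and from -0.28 to 0.0013 with IL-10 alone when a replicate was left out. In LPS + JQ1 against LPS + IL-10 it was 0.072 with TMM and in edgeR, 0.25 with total counts, 0.19 in limma and 0.049 on these groups alone, and -0.084 to 0.053 when a replicate was left out. In the JQ1 interaction it was 0.30 with total counts and 0.22 in limma. Il1rn with IL-10 alone was 0.043 in limma and -0.091 to 0.12 when a replicate was left out. Il18bp in LPS + JQ1 against unstimulated cells was -0.12 with total counts and -0.075 in limma. In the JQ1 interaction Il1a was 0.26 with total counts, -2.68 in limma, where it passed (adjusted p = 0.0011), and -1.23 to 0.31 when a replicate was left out, and Il1b 0.38 with total counts, 0.011 in edgeR and -1.15 to 0.24. Il1a in the IL-10 interaction was -1.15 to 0.40. With a replicate left out, the difference in the Il1a to Il1b ratio with JQ1 was -0.65 to -0.28, and that in the Il18bp to Il18 ratio was -0.34 to 0.0067 with JQ1 and -0.063 to 0.20 with IL-10. Depth limits Il1r1 and Il1r2, with at most 20 and 2 counts per library.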
